A study of Mus musculus with 6 samples.

Results

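The subject is 10 enzymes and carriers that remove superoxide and peroxide, read in gastrocnemius, the large calf muscle, of Ogg1Tg and Control mice. They were chosen by name as a pathway, and all 10 were found among the 35474 distinct gene symbols of the deposited tables. By compartment they are Sod2, Prdx3, Prdx5 and Txn2 in mitochondria, Sod1, Gpx1 and Gpx4 counted here as cytosolic, Cat in peroxisomes, and Sod3 and Gpx3 outside the cell. The Ogg1Tg group was 3 male mice that carry human OGG1-1a fused to a mitochondrial translocation signal under a CMV/AG promoter, and the Control group was 3 male C57BL/6J mice. All 6 had the strain background C57BL/6J, a chow diet, no treatment and an age of 20 weeks, and each gave 1 library. OGG1 is a glycosylase that excises oxidised guanine from DNA, and the comparison asks how a copy directed to mitochondria changes the muscle transcriptome. Mouse Ogg1 stood at 176, 201 and 193 scaled reads in Ogg1Tg replicates 1, 2 and 3, against 154, 225 and 193 in Control replicates 1, 2 and 3. That row counts the mouse gene, so it does not measure the human transgene.

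Superoxide is made when electrons leak to oxygen, above all from the respiratory chain and from NADPH oxidases. Superoxide dismutases turn it into hydrogen peroxide, which catalase, glutathione peroxidases and peroxiredoxins remove. Glutathione peroxidases draw electrons from glutathione, and peroxiredoxins from thioredoxins. In skeletal muscle, oxidative fibres generally hold more of them than glycolytic ones.

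A scaled read is a read count divided by 1 factor per library, as deposited. Reads in named genes came to 45189860 to 56126407 per library, and the 10 genes had 298 to 13699 reads each per library. Skeletal muscle markers, with Acta1, Ckm and Mylpf first, were high in all 6 libraries. Ogg1Tg replicate 3 stood apart: its Spearman correlation across genes with the others was 0.946 to 0.953, against 0.975 to 0.983 among the other 5. In that library all 6 lymphocyte markers, among them Cd79a and Ms4a1, summed to 5809 scaled reads, against 55.6 and 57.8 in the other Ogg1Tg libraries and 15.3 to 41.8 in Control. Its 6 adipocyte markers, led by Adipoq, Plin1 and Cidec, summed to 10933, against 3129 and 3436 in the other Ogg1Tg libraries and 3674 to 4125 in Control. Its 6 macrophage markers, led by Adgre1, Cd68 and Csf1r, summed to 8168, against 2557 and 3099 in the other Ogg1Tg libraries and 3672 to 5167 in Control. Its 5 skeletal muscle markers summed to 7560268, against 10662234 and 12854104 in the other Ogg1Tg libraries and 10413709 to 12247442 in Control, most of it Ttn. Mb, the oxygen carrier myoglobin, is in the same list and was named after its values were seen. It measured 23409, 14900 and 6392 in Ogg1Tg replicates 1, 2 and 3, against 26217, 42743 and 39151 in Control, without overlap, and passed DESeq2 (adjusted p = 0.035) but not limma (adjusted p = 0.25) or edgeR (adjusted p = 0.33). In tissue RNA, fewer cells of a type and less RNA per cell cannot be told apart.

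None of the 10 genes passed the test across all genes, in either direction. The test was limma on log2(value + 1) over 23312 genes, of which 127 passed at an adjusted p under 0.05, or 0.545%, with 92 of them higher (0.395%) and 35 lower (0.15%). Before adjustment 1 member, Prdx5, had a p under 0.05, and it was lower; of all genes tested 11% had such a p, and 6.78% had one and were lower. With edgeR on recovered reads 0 of the 10 passed, against 0.532% of genes. With DESeq2 0 of the 10 passed, against 3.42% of the 18075 genes to which it gave an adjusted p. Without Ogg1Tg replicate 3, 0 of the 10 passed limma, against 1.86% of the 22815 genes then tested. The median log2 fold change over the 10 was -0.05, beside -0.02 over all genes tested, with 4 members above 0 and 6 below. The sign of that median turned without Ogg1Tg replicate 3, to 0.096 beside -0.04 over all genes, with 6 members above 0 and 4 below. All 10 members had a mean of at least 100. The 12873 tested genes with such a mean had a median of -0.06, with 5210 above 0 and 7663 below. Their median without Ogg1Tg replicate 3 was -0.04. Fold changes ran from -0.46 for Sod2 to 0.34 for Gpx3 on the log2 scale. In 3 of the 10 genes the groups did not overlap: Sod2 and Prdx5 were lower in every Ogg1Tg library than in any Control library, and Gpx1 was higher. Such separation occurred in 18.3% of all genes tested, 11.3% lower and 7.03% higher.

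**Figure D1:**
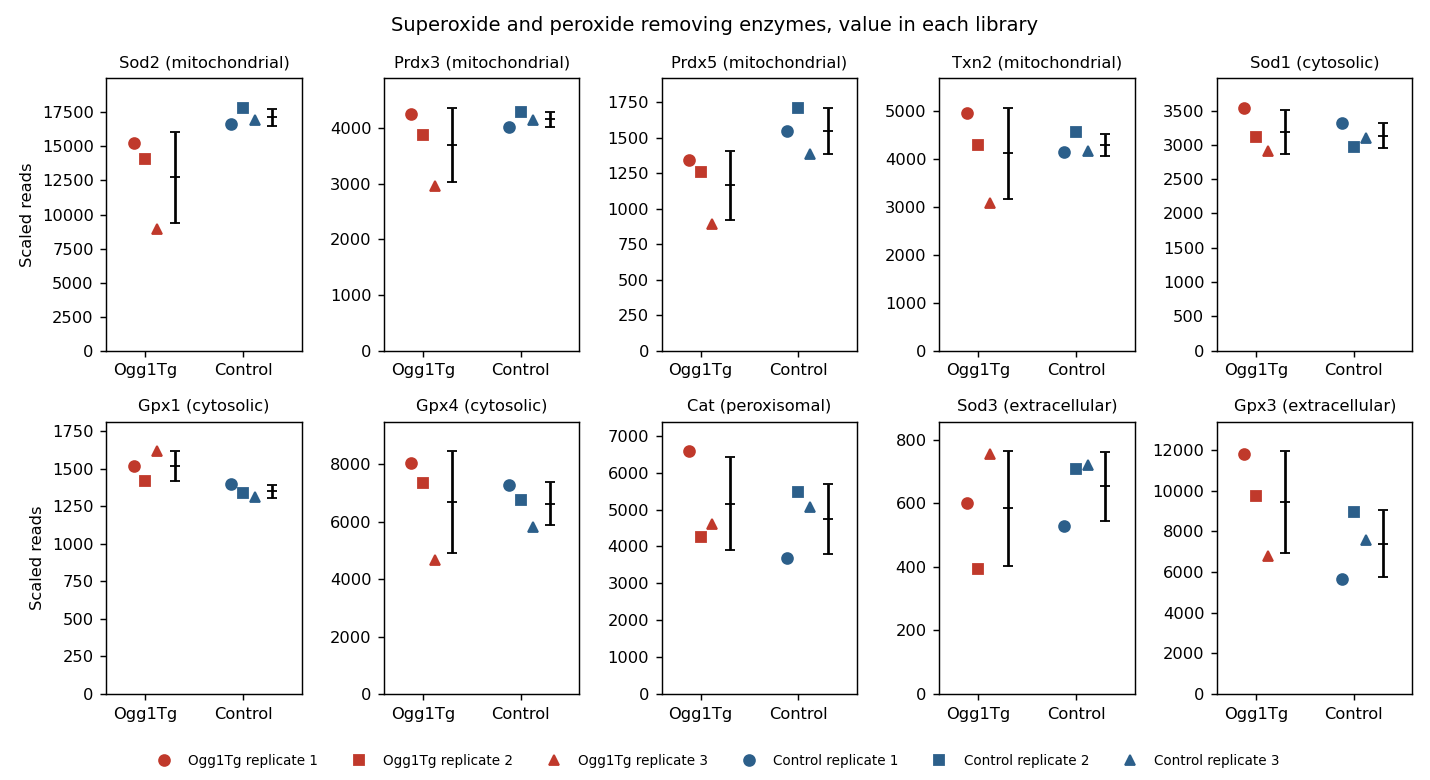
Scaled reads of each of the 10 genes in each library, with Ogg1Tg in red on the left and Control in blue on the right, and black bars for mean ± SD (n = 3). The values for Sod2 were 8931 to 15217 in Ogg1Tg and 16631 to 17853 in Control, and the groups were also apart for Prdx5 and Gpx1.

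The promoter windows of the 3 genes whose groups did not overlap are shown here. Each runs from 250 bases before to 50 after the RefSeq start on GRCm38.p6, the assembly of mm10, and capitals mark the GC box, GGGCGG, on either strand. The Sod2 window is chr17:13007589-13007888 on the plus strand, the Prdx5 window chr19:6910057-6910356 on the minus strand and the Gpx1 window chr9:108338830-108339129 on the plus strand.
Sod2: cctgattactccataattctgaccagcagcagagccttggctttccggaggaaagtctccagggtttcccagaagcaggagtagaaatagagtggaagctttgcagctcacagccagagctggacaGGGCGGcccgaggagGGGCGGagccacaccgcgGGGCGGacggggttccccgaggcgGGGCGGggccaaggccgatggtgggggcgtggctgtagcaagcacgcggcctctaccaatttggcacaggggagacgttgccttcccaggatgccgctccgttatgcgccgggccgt
Prdx5: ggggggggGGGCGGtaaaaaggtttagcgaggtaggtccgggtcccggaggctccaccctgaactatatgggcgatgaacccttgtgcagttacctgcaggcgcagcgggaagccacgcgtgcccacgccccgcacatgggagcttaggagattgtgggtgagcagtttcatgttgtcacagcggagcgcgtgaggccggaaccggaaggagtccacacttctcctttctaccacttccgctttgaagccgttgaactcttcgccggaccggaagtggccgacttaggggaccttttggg
Gpx1: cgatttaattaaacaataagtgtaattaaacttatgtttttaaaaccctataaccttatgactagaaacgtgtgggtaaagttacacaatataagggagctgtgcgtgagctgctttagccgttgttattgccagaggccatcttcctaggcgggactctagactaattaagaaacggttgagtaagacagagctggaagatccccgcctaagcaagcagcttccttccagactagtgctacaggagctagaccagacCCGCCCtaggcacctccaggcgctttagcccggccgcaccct
The Sod2 window held 4 GC boxes and those of Prdx5 and Gpx1 held 1 each, and 35.7% of all 32851 windows held at least 1. The box does not set these genes apart from the other members. It also occurred for Prdx3, Txn2, Sod1, Cat, Gpx3 and Gpx4, whose groups overlapped, and the Sod1 window held 4. RefSeq windows matched 9 of the 10 genes by symbol, all but Sod3, with 12 windows in all since Gpx4 has several. Of the 12, the letters of the antioxidant response element, TGACNNNGC on either strand, occurred in that of Sod1, once, and in 12.4% of all windows. The letters of the CHOP-ATF4 composite element, TGATGNAA on either strand, occurred in 0 of the 12 and in 3.97% of all windows. These counts say only whether the letters are present.

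Sod2, the manganese superoxide dismutase of the mitochondrial matrix, had the lowest fold change of the 10. It lies on chromosome 17 from 13006846 to 13040063 of mm10, on the plus strand. It measured 15217, 14052 and 8931 scaled reads in Ogg1Tg replicates 1, 2 and 3, against 16631, 17853 and 16913 in Control replicates 1, 2 and 3. Every Ogg1Tg library lay below every Control library, and Ogg1Tg replicate 3, the lowest, stood at 52.1% of the Control mean, against 88.8% and 82.0% in Ogg1Tg replicates 1 and 2. On the log2 scale the difference was -0.46 ± 0.21 (SE), and its 95% interval ran from -0.93 to 0.0015 (limma adjusted p = 0.45). Without Ogg1Tg replicate 3 it was -0.23, with an interval from -0.43 to -0.02 (limma adjusted p = 0.30). That library also had low skeletal muscle markers and high lymphocyte and adipocyte markers, whose part in the value was not tested. Relative to Acta1, skeletal muscle actin, Sod2 stood at 23.5, 19.6 and 20.8 per 1000 in Ogg1Tg replicates 1, 2 and 3, against 24.9, 24.3 and 24.6 in Control, a measure chosen after its values were seen. On that scale Ogg1Tg replicate 3 no longer lay below replicate 2, and the groups still did not overlap. That depends on the marker chosen. With Ckm as the scale, at 237536 in Ogg1Tg replicate 1 and 266205 in Control replicate 1, the groups would overlap.

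Prdx5, a peroxiredoxin found in mitochondria, peroxisomes and cytosol, came next. Its gene lies on chromosome 19 from 6906697 to 6910106, on the minus strand. It measured 1344, 1258 and 889 in Ogg1Tg replicates 1, 2 and 3, against 1548, 1711 and 1386 in Control. The highest Ogg1Tg value was just under the lowest Control value, and replicate 3 was again the lowest library. Its log2 fold change was -0.43 ± 0.18 (SE) and had a 95% interval from -0.83 to -0.03 (limma adjusted p = 0.41). Without Ogg1Tg replicate 3 it was -0.25, with an interval from -0.50 to 0.01 (limma adjusted p = 0.38). Per 1000 of Acta1 it stood at 2.08, 1.75 and 2.07 in Ogg1Tg muscle, against 2.31, 2.33 and 2.02 in Control, so on that scale the groups overlapped. That measure, too, was chosen after its values were seen and depends on the marker. With Ckm as the scale the groups would not overlap. Prdx5 shares 409 exonic bases with Trmt112 on the opposite strand, a gene with a mean of 552 scaled reads. The strand setting of the counting is unknown here, and reads of the shared stretch may belong to either gene.

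Prdx3, the peroxiredoxin confined to mitochondria, measured 4258, 3884 and 2952 in Ogg1Tg replicates 1, 2 and 3, against 4027, 4298 and 4156 in Control. Ogg1Tg replicate 1 lay within the Control range, and replicates 2 and 3 lay below it. The log2 fold change was -0.19 ± 0.15 (SE; limma adjusted p = 0.69), and -0.03 without Ogg1Tg replicate 3. Txn2, the mitochondrial thioredoxin that reduces Prdx3, measured 4972, 4305 and 3085 in Ogg1Tg replicates 1, 2 and 3, against 4146, 4564 and 4174 in Control. One Ogg1Tg library was above the Control range, one within it and one below it. Its log2 fold change was -0.09 ± 0.18 (SE; limma adjusted p = 0.88), and 0.11 without Ogg1Tg replicate 3.

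As a compartment, the 4 mitochondrial genes deviated from the Control mean by a median of -0.07, -0.19 and -0.64 (log2) in Ogg1Tg replicates 1, 2 and 3, against -0.04, 0.07 and -0.03 in Control replicates 1, 2 and 3. The other 6 genes had medians of 0.23, 0.03 and -0.06 in Ogg1Tg and of -0.12, 0.08 and 0.03 in Control. In Ogg1Tg replicate 3 the 4 mitochondrial genes lay between -0.94 and -0.48 from the Control mean on the log2 scale, and Gpx4 at -0.50 was the lowest of the other 6. The skeletal muscle markers had medians of -0.09, 0.19 and -0.58 in Ogg1Tg replicates 1, 2 and 3, and of -0.11 to 0.12 in Control, and their part in the mitochondrial values was not tested. Without Ogg1Tg replicate 3 the median log2 fold change of the 4 mitochondrial genes was -0.13, against -0.31 with all 6 libraries. For the other 6 it was 0.15 without that library and 0.07 with it. The ratio of Sod2 to Sod1 reads was 4.30, 4.52 and 3.07 in Ogg1Tg replicates 1, 2 and 3, against 5.003, 6.01 and 5.44 in Control. That ratio, chosen after its values were seen, is not corrected for gene length and serves only to compare libraries.

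**Figure D2:**
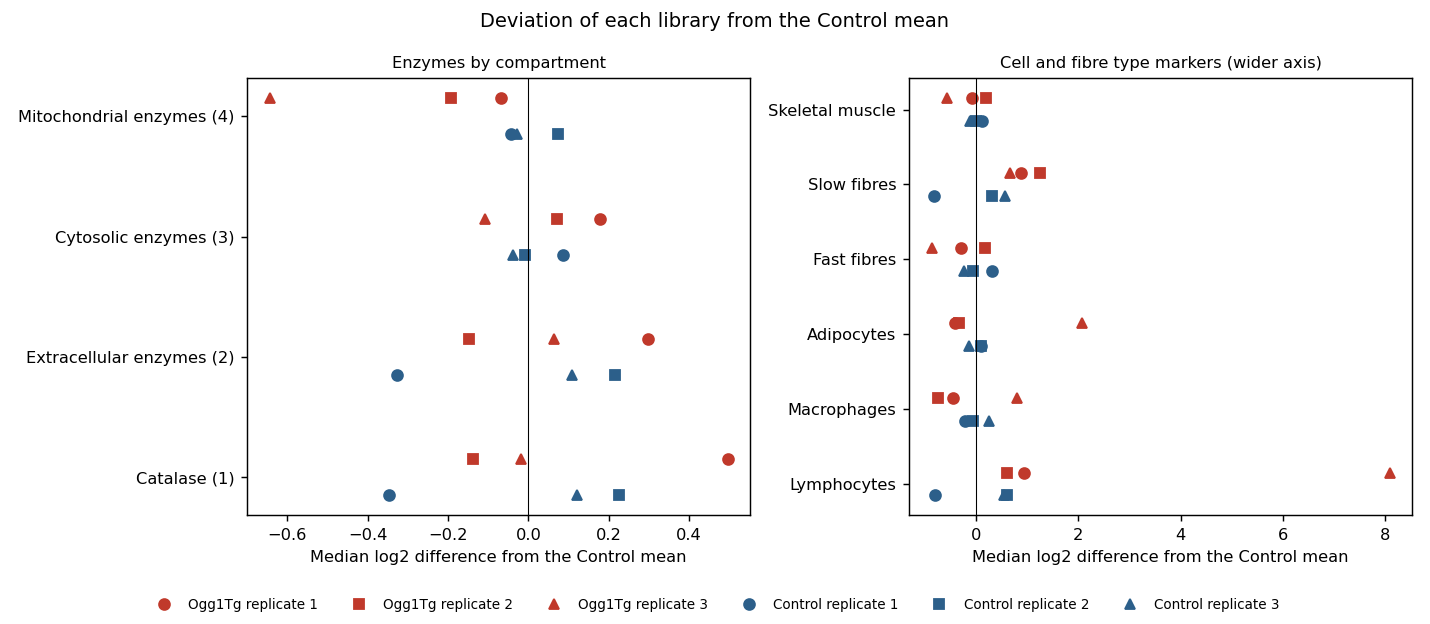
Median log2 difference of each library from the Control mean, for the enzymes by compartment on the left and for markers of cell and fibre types on the right, where the axis is wider. Ogg1Tg replicate 3 (red triangle) lay at -0.64 for the mitochondrial enzymes, at -0.58 for skeletal muscle markers and at 8.09 for lymphocyte markers.

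Sod1, the copper and zinc superoxide dismutase of cytosol and intermembrane space, did not separate the groups. It measured 3542, 3109 and 2906 in Ogg1Tg replicates 1, 2 and 3, against 3324, 2971 and 3106 in Control. Its log2 fold change was 0.02, with a 95% interval from -0.26 to 0.30 (limma adjusted p = 0.97), which leaves folds from 0.835 to 1.23. The log2 value without Ogg1Tg replicate 3 was 0.084, with an interval from -0.14 to 0.30. Its gene on chromosome 16 lies partly within the span of Scaf4 on the opposite strand, with 0 shared exonic bases.

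Gpx1, the main cytosolic and mitochondrial glutathione peroxidase, measured 1516, 1418 and 1621 in Ogg1Tg replicates 1, 2 and 3, against 1396, 1341 and 1314 in Control. Every Ogg1Tg library lay above every Control library, by a small margin, and Ogg1Tg replicate 3 was the highest. Its log2 fold change was 0.17 ± 0.12 (SE) and had a 95% interval from -0.10 to 0.43 (limma adjusted p = 0.63). Without Ogg1Tg replicate 3 it was 0.12 (limma adjusted p = 0.68). Gpx1 was thus one of the 2 members, with Sod3, whose value in Ogg1Tg replicate 3 was the highest of all 6 libraries. The part of the lymphocyte, macrophage and adipocyte markers, which were also highest there, was not tested.

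Gpx4, the glutathione peroxidase that reduces lipid hydroperoxides and has cytosolic and mitochondrial forms, measured 8059, 7343 and 4677 in Ogg1Tg replicates 1, 2 and 3, against 7289, 6771 and 5812 in Control. Ogg1Tg replicates 1 and 2 lay above the Control range and replicate 3 below it. Its log2 fold change was -0.02, with a 95% interval from -0.49 to 0.45 (limma adjusted p = 0.98), and 0.22 without Ogg1Tg replicate 3. Its forms share most exons, so the counts per gene do not separate them, and the annotation also holds a processed pseudogene, Gpx4-ps2. Its sign was positive instead with median-of-ratios rescaling, quantile normalization, edgeR and DESeq2.

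Cat, the catalase of peroxisomes, had one of the wider spreads within the Control group. It measured 6595, 4248 and 4620 in Ogg1Tg replicates 1, 2 and 3, against 3676, 5469 and 5084 in Control. The groups overlapped, with the highest library in Ogg1Tg and the lowest in Control. The log2 fold change was 0.11, with a 95% interval from -0.35 to 0.58 (limma adjusted p = 0.87). It was 0.18 without Ogg1Tg replicate 3, -0.078 without Ogg1Tg replicate 1 and -0.060 without Control replicate 1.

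Gpx3, the secreted glutathione peroxidase of plasma and interstitium, had the largest positive fold change of the 10. It measured 11807, 9723 and 6800 in Ogg1Tg replicates 1, 2 and 3, against 5650, 8962 and 7583 in Control. Ogg1Tg replicates 1 and 2 exceeded every Control library, and replicate 3 lay within the Control range. On the log2 scale it differed by 0.34 ± 0.23 (SE), and the 95% interval ran from -0.19 to 0.87 (limma adjusted p = 0.63). Without Ogg1Tg replicate 3 it was 0.56, with an interval from 0.18 to 0.94 (limma adjusted p = 0.16). It was 0.16 without Ogg1Tg replicate 1 (limma adjusted p = 0.81) and 0.16 without Control replicate 1 (limma adjusted p = 0.88).

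Sod3, the extracellular superoxide dismutase, was the lowest of the 10. It measured 602, 394 and 756 in Ogg1Tg replicates 1, 2 and 3, against 530, 709 and 722 in Control. The Ogg1Tg range enclosed the Control range. Its log2 fold change was -0.20 ± 0.24 (SE; limma adjusted p = 0.79), and -0.41 without Ogg1Tg replicate 3, with an interval from -0.85 to 0.04 (limma adjusted p = 0.41). Without Ogg1Tg replicate 2 its sign was positive, at 0.06.

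Control replicate 1 gave the lowest Control value for 6 of the 10 genes: by 0.29 to 0.36 under the Control mean on the log2 scale for Sod3, Cat and Gpx3, and by at most 0.05 for Sod2, Prdx3 and Txn2. The same library had the lowest level of slow fibre markers, with Myh7, Tnnt1 and Tnni1 first. Their 7 genes summed to 106947, 137999 and 86176 in Ogg1Tg replicates 1, 2 and 3, against 31280, 70422 and 81952 in Control replicates 1, 2 and 3, so the sums did not overlap. Myh7, Tnnt1, Tnni1 and Tnnc1 each separated the groups as well, while Myl2, Myl3 and Atp2a2 each overlapped between them. Of the 7, 0 passed limma (smallest adjusted p = 0.26), 0 passed edgeR and 2 passed DESeq2, and 4 had an unadjusted limma p under 0.05. The 7 fast fibre markers, with Myh4, Tnnt3 and Tnni2 first, summed to 5140105, 7406739 and 3685111 in Ogg1Tg, against 7975644, 6270824 and 5611705 in Control, and these overlapped. The part of fibre type in the values of Cat, Gpx3 and Sod3 was not tested. Of vessel cells, the 5 endothelial markers, led by Pecam1, Cdh5 and Kdr, summed to 17619 to 19081 in Ogg1Tg and 17848 to 21892 in Control. The 5 mural markers, led by Myh11, Acta2 and Rgs5, summed to 19268 to 26549 in Ogg1Tg and 27468 to 32061 in Control. Most of that sum was Rgs5, with 13909 to 19795 in Ogg1Tg and 20491 to 24102 in Control, while each of the other 4 overlapped between the groups. The 5 erythroid markers, led by Hba-a1, Hba-a2 and Hbb-bs, summed to 570 to 714 in Ogg1Tg and 773 to 950 in Control. Fibroblast markers, led by Pdgfra, Col1a1 and Col3a1, summed to 42639 to 53924 in Ogg1Tg and 36042 to 50491 in Control, with members above and below 0. Col1a1 and Col3a1, fibrillar collagens, averaged 16544 and 13339 in Ogg1Tg, against 10421 and 8190 in Control, while Pdgfra averaged 1993 in Ogg1Tg and 2632 in Control. Of the 5 fibroblast markers 3 had an unadjusted limma p under 0.05, 0 passed limma or edgeR, and 2, both collagens, passed DESeq2. Of the 6 neutrophil markers, S100a8 and S100a9 were near 0, Ly6g and Elane were listed at 0 in every library, and the sum was at most 30.2, in Ogg1Tg replicate 3.

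**Figure D3:**
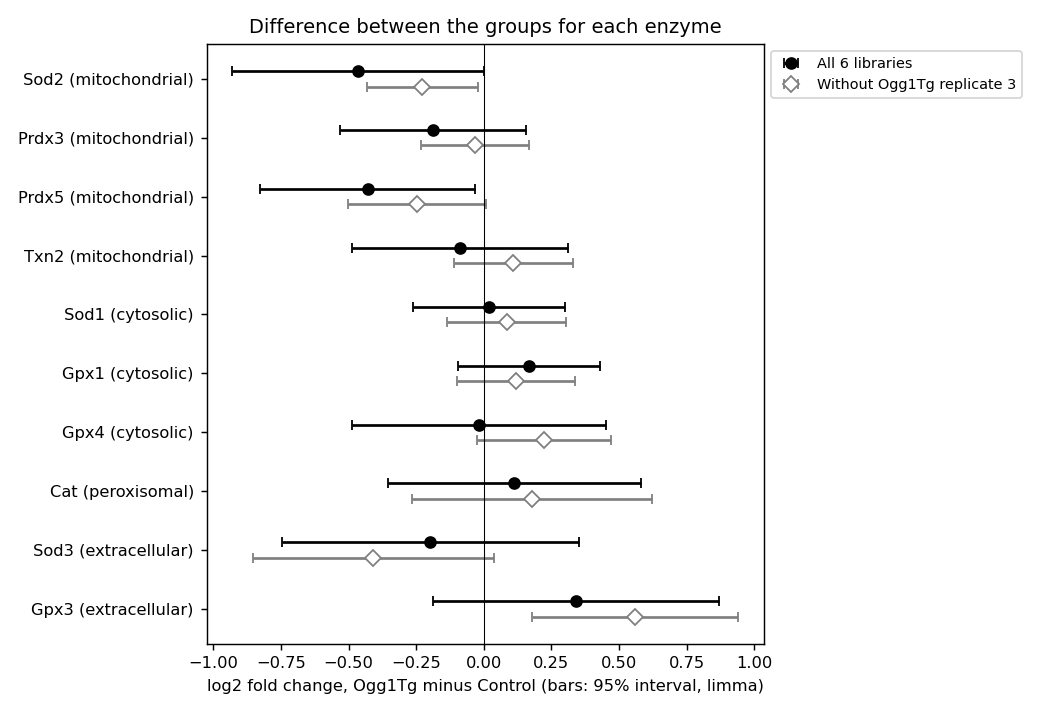
Log2 fold change of each gene, Ogg1Tg minus Control, with 95% intervals from limma, for all 6 libraries (black circles) and without Ogg1Tg replicate 3 (open grey diamonds). With all 6 libraries the interval of Prdx5 ended at -0.03 and that of Sod2 at 0.0015, so that of Prdx5 alone did not span 0.

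Levels can be set against each other only per length of transcript. Per kb of the principal transcript in GENCODE M21, Gpx4 was highest, at 6979 ± 1858 scaled reads per kb in Ogg1Tg and 6907 ± 781 in Control (SD, n = 3 each). Sod1 averaged 4970 ± 507 per kb in Ogg1Tg and 4889 ± 278 in Control, and Gpx3 5924 ± 1578 per kb in Ogg1Tg and 4641 ± 1044 in Control. Sod2 averaged 2173 ± 570 per kb in Ogg1Tg and 2923 ± 109 in Control, beside Prdx3 at 2502 ± 455 in Ogg1Tg and 2815 ± 91.8 in Control. Those middle levels were followed by Txn2, Cat, Gpx1 and Prdx5, the last at 922 ± 191 per kb in Ogg1Tg and 1227 ± 129 in Control. Sod3 was lowest, at 156 ± 48.6 per kb in Ogg1Tg and 175 ± 28.7 in Control. In Control muscle the neighbours Sod1 and Gpx3, Sod2 and Prdx3, Txn2 and Cat, and Gpx1 and Prdx5 overlapped over the 3 libraries, and the other neighbours in this order did not. In Ogg1Tg muscle the neighbours of the same order that did not overlap were Gpx3 and Sod2, Cat and Gpx1, Gpx1 and Prdx5, and Prdx5 and Sod3. The order depends on the length used: over all annotated exons, 10.01 kb for Sod2 and 3.97 kb for Sod1, Sod1 ranked eighth and Gpx3 first in Control, with Sod3 still last.

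**Figure D4:**
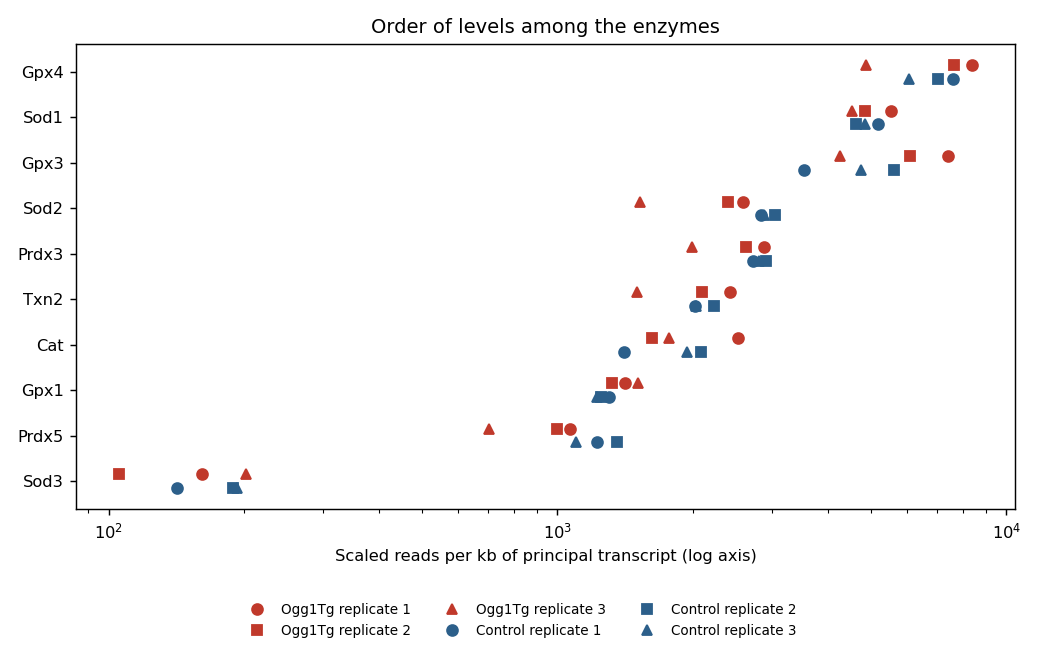
Scaled reads per kb of principal transcript in each library on a log axis, with Ogg1Tg in red above Control in blue for each gene, sorted by the Control mean. Gpx4 and Sod3 form the ends of the order in Control, at 6907 and 175 scaled reads per kb.

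Spread within the groups differed among the 10. In Ogg1Tg the SD was 6.66% of the mean for Gpx1, the smallest of the 10, 26.3% for Sod2 and 31.1% for Sod3, the largest. The value for Sod2 includes Ogg1Tg replicate 3, the library that stood apart, at 8931 against 15217 and 14052 in Ogg1Tg replicates 1 and 2. In Control it was 3.10% for Gpx1, 3.73% for Sod2 and 16.4% for Sod3, with the largest at 22.5% for Gpx3.

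The genes whose pattern over the 6 libraries was most like that of 3 members were named by the highest Pearson correlation of log2 values among 11201 genes with a mean of at least 100, after predicted genes, Rik names, pseudogenes and small RNAs were set aside by name. The libraries share 2 groups and 1 library that stands apart, so these values are a description. For Sod2 they were Oxsm, an enzyme of mitochondrial fatty acid synthesis (r = 0.999), Ggnbp1 (r = 0.998) and mt-Co2, a cytochrome oxidase subunit encoded by mitochondrial DNA (r = 0.998). The mitochondrial transcript mt-Co2 measured 311701, 294928 and 170279 in Ogg1Tg replicates 1, 2 and 3, against 345170, 381045 and 369875 in Control, and did not pass limma (adjusted p = 0.66). For Sod3 they were Il33, an alarmin cytokine (r = 0.989), Lgmn, a lysosomal protease (r = 0.977), and Ankzf1 (r = 0.976). For Gpx3 they were Col4a2, a basement membrane collagen (r = 0.987), Lsm10 (r = 0.974) and Tspan2 (r = 0.974).

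The other genes of the pathway, in 5 lists, gave no called gene with limma or edgeR over all genes, and DESeq2 called 1, Srxn1. Unadjusted limma p was under 0.05 for 1 gene of the thioredoxin list, 3 of the sources, 4 of the peroxisome genes and 0 of the other 2 lists, beside 11% of all genes tested. Beside the signs counted below, 10999 of all genes tested lay above 0 and 12313 below. Of those with a mean of at least 100, 5210 lay above 0 and 7663 below. Of 9 other peroxiredoxins and glutathione peroxidases 8 were tested, 2 lay above 0 and 6 below, and the median log2 fold change was -0.14. It was 0.052 without Ogg1Tg replicate 3, with 5 above 0 and 3 below. Prdx1, a cytosolic peroxiredoxin, averaged 3223 ± 598 in Ogg1Tg and 3524 ± 243 in Control. Prdx2, another cytosolic peroxiredoxin, averaged 2406 ± 656 in Ogg1Tg and 2570 ± 92.1 in Control, and Prdx6 averaged 1851 ± 325 in Ogg1Tg and 2046 ± 296 in Control. All 3 missed the limma threshold, at adjusted p of 0.76 to 0.82.

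Of 15 genes of thioredoxin, glutaredoxin and NADPH supply, 5 lay above 0 and 10 below, with a median of -0.06, and without Ogg1Tg replicate 3 the median was 0.014, with 8 above 0 and 7 below. Txnip, which binds thioredoxin, averaged 19115 ± 2278 in Ogg1Tg and 18097 ± 2074 in Control. Txnrd1, the cytosolic thioredoxin reductase, averaged 4117 ± 610 in Ogg1Tg and 3870 ± 357 in Control, and Idh2, a mitochondrial source of NADPH, 8282 ± 3012 in Ogg1Tg and 9748 ± 3402 in Control. Txnrd2 and Glrx, named after their values were seen, were lower in every Ogg1Tg library than in any Control library. Txnrd2 measured 510, 549 and 391 in Ogg1Tg replicates 1, 2 and 3, against 573, 582 and 576 in Control. Glrx measured 622, 620 and 442 in Ogg1Tg, against 682, 713 and 653 in Control. Srxn1, sulfiredoxin, which restores overoxidised peroxiredoxins, was named after its values were seen, since it stood apart from the rest of the list. It measured 3230, 1574 and 1925 in Ogg1Tg replicates 1, 2 and 3, against 1104, 1052 and 932 in Control. Ogg1Tg values all exceeded Control values; the difference was 1.06 ± 0.24 on the log2 scale (SE), with a 95% interval from 0.52 to 1.599 (limma adjusted p = 0.14). It passed with DESeq2 (adjusted p = 0.00090) and with limma without Ogg1Tg replicate 2 (adjusted p = 0.048) or replicate 3 (adjusted p = 0.045), and over all alternatives its adjusted p ran from 0.00090 to 0.55.

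Of 15 sources of superoxide and peroxide, 6 lay above 0 and 9 below, with a median of -0.09. The median was -0.27 without Ogg1Tg replicate 3, with 3 above 0 and 12 below. Cybb, Cyba, Ncf1 and Ncf4, which encode subunits of the phagocyte NADPH oxidase, were named after their values were seen, and each was highest in Ogg1Tg replicate 3. Cybb, the catalytic subunit, measured 114, 87.3 and 999.9 in Ogg1Tg replicates 1, 2 and 3, against 168, 162 and 277 in Control. The macrophage and lymphocyte markers were also highest in that library, and their part was not tested. Poldip2, a partner of the NADPH oxidase Nox4, averaged 3762 ± 595 in Ogg1Tg and 3894 ± 103 in Control. Xdh, xanthine dehydrogenase, measured 1466, 1446 and 1500 in Ogg1Tg replicates 1, 2 and 3, against 1707, 2045 and 2071 in Control, with no overlap (limma adjusted p = 0.28). Ero1l, named after its values were seen, was higher in every Ogg1Tg library than in any Control library. It measured 1145, 737 and 838 in Ogg1Tg replicates 1, 2 and 3, against 582, 571 and 640 in Control (limma adjusted p = 0.28).

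Of 20 peroxisome genes, the compartment of catalase, 5 lay above 0 and 15 below, with a median of -0.09, and without Ogg1Tg replicate 3 the median was -0.045, with 7 above 0 and 13 below. Scp2, a lipid carrier and thiolase, averaged 3870 ± 456 in Ogg1Tg and 4438 ± 181 in Control. Phyh, which starts the breakdown of branched fatty acids, averaged 3403 ± 1227 in Ogg1Tg and 4860 ± 497 in Control. Abcd2, a peroxisomal transporter of fatty acids, measured 2729, 3227 and 2609 in Ogg1Tg replicates 1, 2 and 3, against 3965, 4080 and 3649 in Control, with no overlap (limma adjusted p = 0.23). Cat thus lay above 0 in a compartment list with most members below 0, and no difference between them was tested.

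Gpx1, Gpx3 and Gpx4 contain selenocysteine, and of 18 other selenoproteins and genes of their synthesis 7 lay above 0 and 11 below, with a median of -0.06. It was 0.059 without Ogg1Tg replicate 3, with 12 above 0 and 6 below. Selenow, a small muscle selenoprotein, averaged 11777 ± 3512 in Ogg1Tg and 14311 ± 1977 in Control. Selenot averaged 7343 ± 1123 in Ogg1Tg and 8563 ± 315 in Control, and Selenop, the plasma carrier of selenium, 7515 ± 2169 in Ogg1Tg and 7415 ± 594 in Control. Adjusted p by limma lay between 0.60 and 0.98 for the 3.

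**Figure D5:**
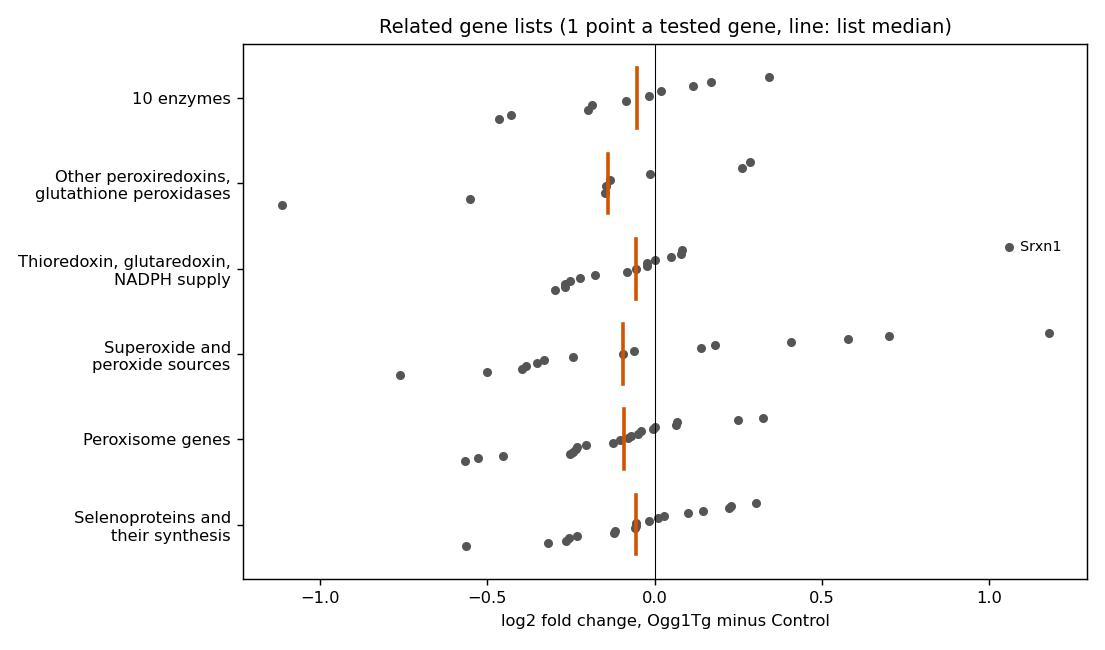
Log2 fold change, Ogg1Tg minus Control, of every tested gene of the 10 enzymes and of the 5 related lists, with 1 point a gene and an orange line for the median of each list. With all 6 libraries, as plotted, the medians ran from -0.14 to -0.05 and Srxn1 lay at 1.06; without Ogg1Tg replicate 3 the medians ran from -0.27 to 0.096, and 4 of the 6 were above 0.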

How the data were processed

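Total RNA of each muscle was isolated with a QIAGEN column kit and sequenced from 1 NuGen Ovation library, per the labels' protocols. Trimmomatic, SAMtools, HTSeq and the build mm10 are named in the submitters' processing notes; aligner, annotation and strand setting: not given in the sources used here. Although the file names say FPKM, the values behave as a normalized signal, deposited as read counts over a library-wide factor with no length term. Divided by 1 step per library, 100% of values came within 0.01 of a whole read; the step of Ogg1Tg replicate 3, 1.006, is too near 1 to be telling. The 1824 of 37315 entries that name no gene, with 2.38% to 3.54% of reads, were dropped.

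Genes averaging at least 1 in the 6 libraries were tested on log2(value + 1) with limma 3.58.1 in R 4.3.3 (variance trend, two-sided, Benjamini-Hochberg over all genes tested, called at an adjusted p under 0.05). The transformation understates folds of low genes. edgeR 4.0.16 and DESeq2 1.42.0 on recovered reads were alternatives, with another pseudocount, filters, scalings, trend settings, the replicate number as a block, and the removal of each library in turn. The limma step was tested on simulated data, with larger changes than those of the 10 genes and no library that stood apart. That test therefore does not show how well changes as small as theirs are found. The labels do not mention litters or days, so p-values measure the spread between these 6 samples. All libraries differed by more than sampling noise (smallest chi-square per gene 12.9). The members, lists and tests were chosen with earlier results of these data known. Genes named beside the 10 were up to 4 called genes of each list or, with none called, the 3 with the highest mean. The rule also named the first 3 markers of each marker list and the 3 genes most like Sod2, Sod3 and Gpx3. Srxn1, Txnrd2, Glrx, Cybb, Cyba, Ncf1, Ncf4, Ero1l, Maob, Nox4 and Duox2 fall outside that rule. So do the markers Ttn, Mb, Elane, Tnnc1, Myl2, Myl3 and Atp2a2. Ogg1, Trmt112, Scaf4 and Gpx4-ps2 were named apart from the lists. Some genes that the rule names are not reported here. Coordinates and lengths come from GENCODE M21 on GRCm38 and promoter windows from RefSeq on GRCm38.p6, with 9 of the 10 members matched by symbol.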

Additional observations from a re-analysis of the deposited data

How the results depend on the processing

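Of the 10 genes, 0 were called under any of the 16 alternatives, with limma, edgeR or DESeq2. In 145 of 160 pairs of gene and alternative the sign was that of the reported value. Sod2, Prdx3 and Prdx5 stayed below 0 and Gpx1 and Gpx3 above 0 in all 16; Sod2 ran from -0.61 to -0.23 and Prdx5 from -0.54 to -0.25 on the log2 scale. The sign turned for Gpx4 with median-of-ratios rescaling (0.038), quantile normalization (0.15), edgeR (0.084) and DESeq2 (0.063), and for Txn2 with quantile normalization (0.037) and edgeR (0.012). Poldip2 turned with quantile normalization (0.062), edgeR (0.024) and DESeq2 (0.0015), and Selenop with median-of-ratios rescaling (0.040), quantile normalization (0.20), edgeR (0.11) and DESeq2 (0.083). With 1 library left out the ranges that crossed 0 were -0.078 to 0.24 for Cat, -0.17 to 0.22 for Gpx4, -0.14 to 0.076 for Poldip2, -0.24 to 0.019 for Prdx1, -0.32 to 0.084 for Prdx2, -0.24 to 0.14 for Selenop, -0.059 to 0.084 for Sod1, -0.41 to 0.060 for Sod3, -0.24 to 0.11 for Txn2 and -0.012 to 0.20 for Txnrd1. The cause was not tested.

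The total of called genes was 127, with 46 without a variance trend (41 higher, 5 lower) and 619 with DESeq2 (363 higher, 256 lower). With 1 library left out it ran from 35 without Control replicate 3 to 425 without Ogg1Tg replicate 3; it was 62 without Ogg1Tg replicate 1, 43 without Control replicate 1 and 42 without Control replicate 2. Leaving out Ogg1Tg replicate 2 gave 194 (96 higher, 98 lower), and leaving out Ogg1Tg replicate 3 gave 225 higher and 200 lower, against 92 and 35. Of the thioredoxin list 1 gene, Srxn1, was called with DESeq2 (log2 fold change 1.18) and without Ogg1Tg replicate 2 or 3 (1.28 and 1.13), and 0 otherwise; leaving out 1 library gave 0 to 1. The labels do not say that the same replicate numbers in both groups are paired. The correlation of same-numbered deviations was -0.05, -0.01 and 0.03 for replicates 1, 2 and 3. Such values cannot exclude shared litters or days. With the replicate block 102 genes were called, 0 of them among the 10, with Sod2 at an adjusted p of 0.47 and Prdx5 of 0.36. Median-of-ratios rescaling moved the median of all genes by 0.05.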
